A study of Mus musculus with 6 samples.

Results

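Haemoglobin and red cell transcripts were followed in the kidney cortex of male C57BL6 mice, where they may mark blood in the tissue. The labels do not say whether the kidneys were perfused. The set was defined by gene symbol and comprised the α-globin gene Hba-a1, the β-globin genes Hbb-b1 and Hbb-b2, and Alas2, Bpgm and Fech. Every array probe that the platform annotation assigns to 1 of these 6 symbols was a member, which gave 9 of the 45281 probes on the array, for 5 of the 19057 genes it names. Hba-a1, Hbb-b2 and Alas2 had 1 probe each, Bpgm had 2 and Fech had 4, whereas Hbb-b1 had 0. In the annotation the bright adult β-globin probes carry the symbols Hbb-bs and Hbb-bt instead, 10 probes in all, and these genes are described beside the members.

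Captopril, which blocks the enzyme that makes angiotensin II, had been taken by 3 mice with their drinking water for 7 days, at 10 mg/kg/day, starting at 11 weeks of age. A further 3 mice served as controls, and all 6 animals are labelled as 12 weeks old. Total RNA of each cortex was hybridized to an Illumina MouseWG-6 v2 bead array, 1 mouse per array, and the replicate numbers of the labels name the arrays. Between 16372 and 17312 probes per array were detected above the negative controls (detection p under 0.05), the correlation between arrays across tested probes was 0.984 to 0.987 for all 15 pairs, and the number of arrays limits the precision of every value. Of 12 kidney cortex markers 11 were tested, with the proximal tubule phosphate transporter gene Slc34a1 at a log2 level of 14.84 to 14.92 on captopril arrays and 14.84 to 14.94 on control arrays.

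Haemoglobin is assembled from α-globin and β-globin chains, each holding a haem group, and circulating reticulocytes still carry large amounts of globin mRNA, so that a tissue that is not perfused free of blood yields globin signal. Alas2 encodes the erythroid form of the enzyme that starts haem synthesis, and Fech encodes ferrochelatase, which inserts iron at the end of that pathway in all cells that make haem. Bpgm encodes the enzyme that makes bisphosphoglycerate, the red cell metabolite that lowers the oxygen affinity of haemoglobin. C57BL/6 mice carry the single β-globin haplotype, whose adult genes are Hbb-bs and Hbb-bt, while Hbb-b1 and Hbb-b2 are the adult genes of the diffuse haplotype of other strains. In bulk RNA, fewer cells of a type and less RNA per cell cannot be told apart.

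The promoters of the genes whose probes varied together between mice are shown because those genes are the ones on which the results turn. Each is the 250 bases before the annotated start, 5′ to 3′ on the gene's own strand, taken from RefSeq on build GRCm38.p6. Capitals mark matches on either strand to GATAA, the core of elements bound by GATA factors, to CACCC, the box bound by Krüppel-like factors, to the CCAAT box bound by the NF-Y factor, and to the TATA element in the form ATATAA. The motifs were chosen with these sequences in view.
Hba-a1, chr11:32283422-32283671, + strand: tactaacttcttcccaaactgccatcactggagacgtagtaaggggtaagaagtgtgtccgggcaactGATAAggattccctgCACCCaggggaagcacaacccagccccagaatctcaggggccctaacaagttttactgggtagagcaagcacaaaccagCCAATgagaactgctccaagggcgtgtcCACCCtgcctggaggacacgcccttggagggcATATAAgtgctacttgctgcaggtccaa
Hbb-bs, chr7:103827929-103828178, - strand: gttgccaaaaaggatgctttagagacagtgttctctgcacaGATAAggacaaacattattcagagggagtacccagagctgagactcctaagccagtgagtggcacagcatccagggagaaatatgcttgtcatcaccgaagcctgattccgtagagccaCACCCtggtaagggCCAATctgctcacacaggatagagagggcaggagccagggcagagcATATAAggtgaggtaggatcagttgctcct
Hbb-bt, chr7:103813924-103814173, - strand: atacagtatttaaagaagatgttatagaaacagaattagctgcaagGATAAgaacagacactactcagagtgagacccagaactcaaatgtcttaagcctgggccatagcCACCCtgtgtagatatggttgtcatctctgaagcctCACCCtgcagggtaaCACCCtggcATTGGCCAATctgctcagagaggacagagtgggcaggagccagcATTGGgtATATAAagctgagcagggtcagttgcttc
Alas2, chrX:150547167-150547416, + strand: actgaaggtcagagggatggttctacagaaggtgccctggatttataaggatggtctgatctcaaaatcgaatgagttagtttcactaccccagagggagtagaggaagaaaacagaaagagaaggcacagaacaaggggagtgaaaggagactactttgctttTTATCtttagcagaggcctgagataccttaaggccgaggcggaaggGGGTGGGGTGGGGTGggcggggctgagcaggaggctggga

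Over 32851 promoters of that length, 22.6% held GATAA, 52% CACCC, 33.8% CCAAT and 9.1% ATATAA, and 0.466% held all of them. The Hba-a1, Hbb-bs and Hbb-bt windows held all of them, with ATATAA starting 28, 30 and 29 bases before the start. The Alas2 window held GATAA and CACCC, both on the opposite strand, and no match to the other motifs in these letters. Pairs of windows were compared over longer RefSeq sequences that ran past the annotated start, without gaps and at the best single offset. The Hba-a2 window was identical to that of Hba-a1, its neighbour on chromosome 11, over all 297 aligned bases at an offset of 3 bases. Hba-a2 had 0 probes under its symbol. The copies encode nearly the same mRNA, and the coding sequences of Hbb-bs and Hbb-bt are closely alike. The sequences of the array probes were not used here, so which copy a probe measures was not checked, and the gene names of the globin probes are those of the annotation. A probe of Hbb-bs may in part measure Hbb-bt and the reverse. In the same comparison without gaps, the Hbb-bs and Hbb-bt windows were identical at 56.19% of 299 aligned bases. Insertions and deletions were not allowed for, so stretches shifted by them do not count in this share.

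Adult globin transcripts were among the brighter signals of the cortex. The Hba-a1 probe ILMN_1212702 gave 11240, 12940 and 14606 intensity units on captopril arrays 1, 2 and 3, against 7454, 8540 and 14757 on control arrays 1, 2 and 3, before normalization. It ranked between 112 and 237 from the brightest probe on captopril arrays and between 109 and 354 on control arrays, and the brightest probe of each array reached 37808 to 45840 units. The 11 tested probes of Hba-a1, Hbb-bs and Hbb-bt together made up 0.368%, 0.552% and 0.515% of the summed intensity on captopril arrays 1, 2 and 3, against 0.286%, 0.370% and 0.557% on control arrays 1, 2 and 3. Captopril arrays averaged 0.478% ± 0.098 and control arrays 0.404% ± 0.139 (SD, n = 3 each), and the groups overlapped. The intensities in this share were not background corrected, and its total covers all 45281 probes, most of them undetected. The share therefore also depends on the background of each array, where the median intensity ran from 111 on control array 2 to 147 on captopril array 1.

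The other members were dim or below detection. Alas2 gave 194, 191 and 237 intensity units on captopril arrays and 179, 157 and 215 on control arrays, and was detected on all 6. The brighter Fech probe, ILMN_1228534, gave 220, 184 and 190 units on captopril arrays and 234, 147 and 187 on control arrays, and was also detected on all 6. A second Fech probe, ILMN_2710731, was detected on all 6 arrays, while ILMN_1229519 and ILMN_1252066 were detected on 1 captopril array and 0 control arrays each. Neither Bpgm probe and not the Hbb-b2 probe was detected on any array: Hbb-b2 gave 102 to 138 units on captopril arrays and 106 to 150 on control arrays, near the median intensity of all probes (111 to 147), and no fold is given for them. The embryonic globins Hbb-bh1, Hbb-y and Hba-x, and the θ-like genes Hbq1a and Hbq1b, were each detected on at most 1 of the 6 arrays. Globin signal in the cortex was thus read from adult α and β probes alone, and 4 of the 9 member probes could be tested, those of Hba-a1, Alas2 and Fech.

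Globin levels differed more between mice of 1 group than between the groups. After background correction and quantile normalization (neqc), Hba-a1 stood at log2 levels of 13.16, 13.84 and 13.75 on captopril arrays 1, 2 and 3, against 12.76, 13.31 and 13.86 on control arrays 1, 2 and 3. Control array 1 was the lowest and control array 3 the highest of all 6, so the control group spanned the captopril group. Hbb-bt, at its brightest probe ILMN_1236718, stood at 13.28, 13.86 and 13.89 on captopril arrays and 12.80, 13.33 and 13.92 on control arrays. Hbb-bs, at its brightest probe ILMN_2545963, stood at 13.19, 14.04 and 13.83 on captopril arrays and 13.06, 13.46 and 13.84 on control arrays. The same arrays were low and high for each of these genes, with captopril array 1 and control arrays 1 and 2 below the mean of the 6 and captopril arrays 2 and 3 and control array 3 above it.

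**Figure D1:**
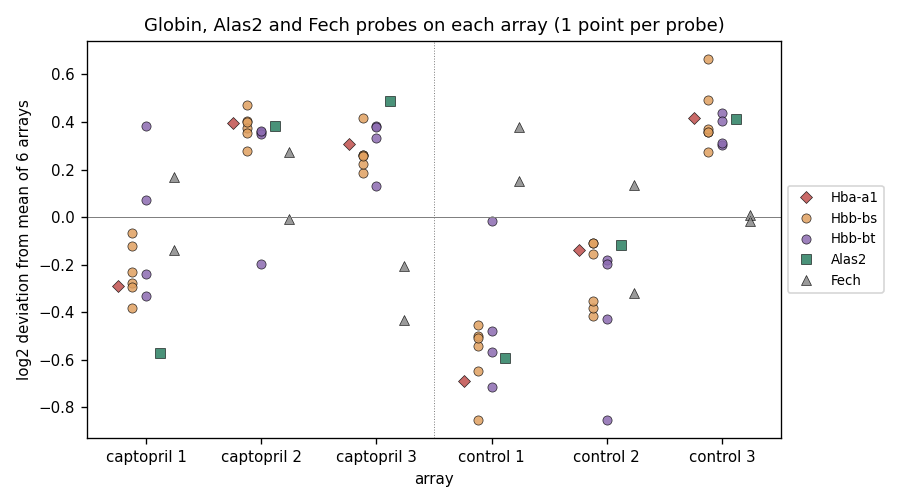
Deviation of each tested probe from its own mean over the 6 arrays, on the log2 scale, with captopril arrays left of control arrays and 1 point per probe. Hba-a1, Alas2 and every Hbb-bs probe are low on captopril array 1 and control arrays 1 and 2 and high on the others, 1 Hbb-bt probe stands at 0.07 and the dim one at 0.38 on captopril array 1, and the Fech probes have another order.

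Across mice the 9 adult globin probes with a mean log2 level of at least 10 spanned 0.81 to 1.14 log2 units, or 1.75-fold to 2.21-fold. All 9 were lowest on control array 1, and captopril array 1 was the lowest captopril array for all 9. Pairwise Pearson r over the 6 arrays ran from 0.77 to 0.99 among these probes, with a median of 0.96 over the 36 pairs, which share the arrays and in part closely related target sequences. The dim Hbb-bs probe ILMN_2544056 followed Hba-a1 with r = 0.97, and the Hbb-bt probe ILMN_1235372, which was detected on 2 arrays of each group, had r = 0.17.

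This spread was large for bright probes. The SD of Hba-a1 over the 6 arrays was 0.45 log2 units, against a median of 0.11 among the 668 tested probes with a mean log2 level of at least 12. Only 4 of those 668 probes had a larger SD, 1 of Hbb-bs, 1 of Hbb-bt, the cytochrome P450 probe of Cyp4a12a and the unnamed probe ILMN_1230073. All 8 adult globin probes in that set were among its 20 most variable. Over all 16500 tested probes, whose dim members are noisier, the median SD was 0.21 and 736 probes exceeded Hba-a1.

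Alas2 varied between mice in the same order of size as the globins. Its log2 levels were 5.84, 6.79 and 6.90 on captopril arrays 1, 2 and 3, against 5.82, 6.29 and 6.82 on control arrays 1, 2 and 3, a span of 1.08. Captopril array 1 and control array 1 were the lowest, as they were for the brightest Hbb-bs probe. Fech did not follow: ILMN_1228534 stood at 6.26, 6.67 and 6.19 on captopril arrays and 6.77, 6.07 and 6.40 on control arrays, with its highest level on the control array where the globins were lowest.

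**Figure D2:**
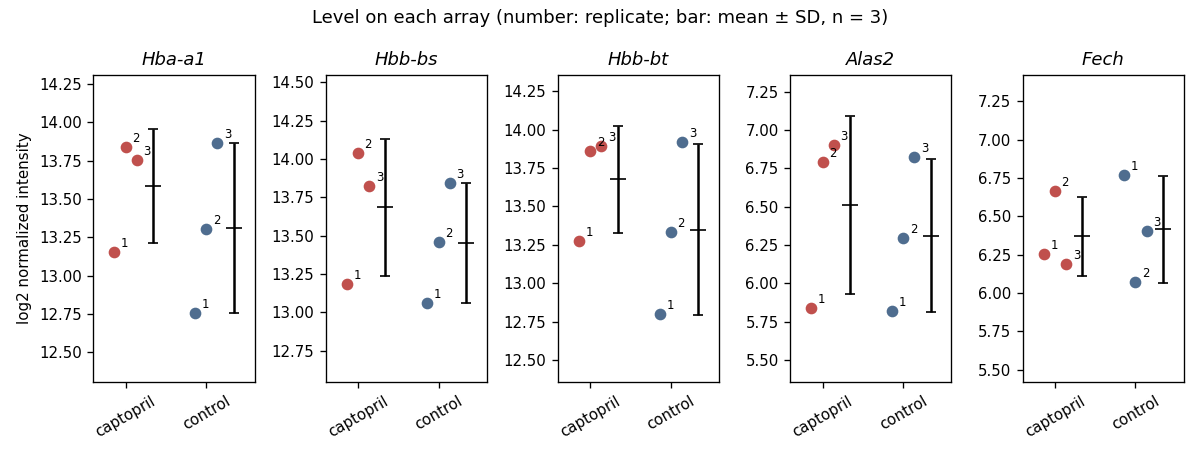
Log2 normalized intensity of Hba-a1, Hbb-bs, Hbb-bt, Alas2 and Fech on each array (points, numbered by replicate), with group mean and SD beside them (n = 3), captopril left of control and each panel spanning 2 log2 units. The groups overlap in every panel, with Hba-a1 at 13.16 to 13.84 on captopril arrays and 12.76 to 13.86 on control arrays.

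Correlation over the 6 arrays was computed for the 10 pairs of Hba-a1, Hbb-bs, Hbb-bt, Alas2 and Fech, each at its brightest tested probe, with exact two-sided permutation over 720 pairings and Benjamini-Hochberg adjustment over the pairs. All 6 pairs without Fech passed 0.05 by Pearson r, and 0 passed by Spearman rho after adjustment. Hba-a1 and Hbb-bt had r = 0.99 (exact permutation p = 0.00417, adjusted 0.0139) and rho = 0.94 (exact permutation p = 0.0167, adjusted 0.0556). Hba-a1 and Hbb-bs had r = 0.97 (exact permutation p = 0.00417, adjusted 0.0139) and rho = 0.94 (exact permutation p = 0.0167, adjusted 0.0556). These pairs join the chains of 1 protein, encoded on chromosomes 11 and 7.

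The erythroid haem enzyme gene tracked the globin genes. Hba-a1 and Alas2 had r = 0.95 (exact permutation p = 0.0111, adjusted 0.0222) and rho = 0.83 (exact permutation p = 0.0583, adjusted 0.117). Alas2 had r = 0.96 with Hbb-bs (exact permutation p = 0.0139, adjusted 0.0231; rho = 0.77, adjusted 0.171) and r = 0.94 with Hbb-bt (exact permutation p = 0.00417, adjusted 0.0139; rho = 0.94, adjusted 0.0556). Hbb-bs and Hbb-bt, whose probes may share target RNA, had r = 0.95 (exact permutation p = 0.00694, adjusted 0.0174; rho = 0.83, adjusted 0.117). Without control array 1 and captopril array 1, the arrays farthest from the median, r over the remaining 4 was 0.98 for Hba-a1 with Hbb-bt, 0.93 with Hbb-bs and 0.94 with Alas2, and 0.85 to 0.99 for the other pairs without Fech.

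Taken as deviations from the group means, r was 0.995 for Hba-a1 with Hbb-bt, 0.96 with Hbb-bs and 0.95 with Alas2, against 0.99, 0.97 and 0.95 over all arrays. The 36 pairings within groups allow no p below 0.0278, and 0 of the 10 pairs passed on that basis after adjustment (lowest adjusted p = 0.0926, exact permutation). With the mean of a gene's probes in place of the brightest, 3 of the 6 pairs passed. The pairs that did not were Hba-a1 with Hbb-bt (r = 0.88, adjusted p = 0.0694, exact permutation), Hbb-bs with Alas2 (r = 0.93, adjusted p = 0.0694, exact permutation) and Hbb-bt with Alas2 (r = 0.79, adjusted p = 0.146, exact permutation).

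Fech had r of -0.21 with Hba-a1 (rho = -0.09), -0.05 with Hbb-bs (rho = -0.03), -0.25 with Hbb-bt (rho = -0.26) and -0.14 with Alas2 (rho = -0.37), with adjusted p from 0.823 to 0.929 for r and 0.710 to 1 for rho in the exact permutation test. These values rested on control array 1 and captopril array 1, without which r of Fech with the other 4 genes was 0.54 to 0.89 over 4 arrays. They also hold for the brightest probes alone. With the mean of a gene's probes, r of Fech was -0.50 with Hba-a1, -0.42 with Hbb-bs, -0.42 with Hbb-bt and -0.53 with Alas2. The adjusted p was then 0.427 to 0.435 (exact permutation).

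Over all 9717 other tested genes the median r with Hba-a1 was 0.04, and 76 genes (0.782%) reached 0.9. Hbb-bt ranked 1, Hbb-bs 9 and Alas2 28 of them. With 6 arrays, many genes reach a high r, and no p is given for this ranking. After Hbb-bt, the genes closest to Hba-a1 were Fgfrl1, a fibroblast growth factor receptor-like gene (r = 0.98), the replication helicase gene Mcm2 (0.98), the sialyltransferase gene St6gal1 (0.98), Pole3, a DNA polymerase epsilon subunit gene (0.97), Lxn (0.97), Pitpnm2 (0.97) and Eif2b1, a translation initiation factor subunit gene (0.97). Their SD over the 6 arrays was 0.10 to 0.26 log2 units, smaller than the 0.45 of Hba-a1. At the other end stood Cfdp1 (r = -0.98), Btbd9 (-0.96), Mospd2 (-0.96) and the stress-response factor gene Nfe2l2 (-0.96).

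**Figure D3:**
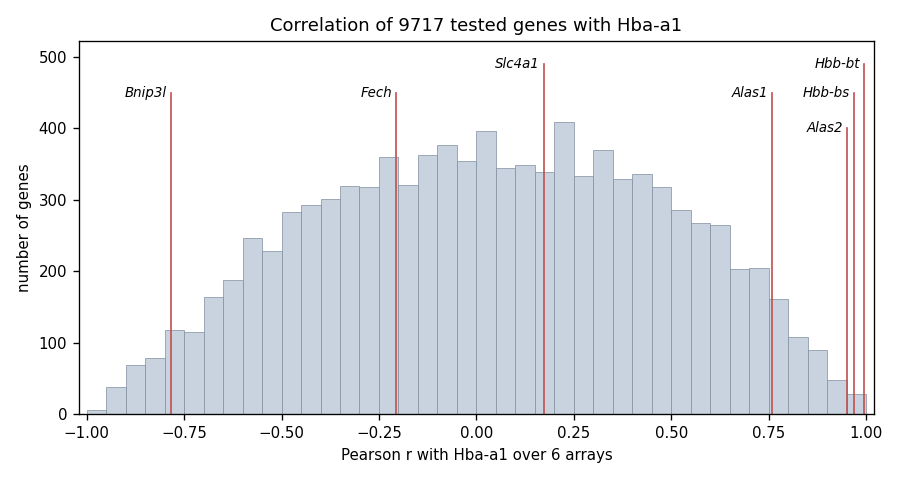
Number of tested genes by Pearson r with Hba-a1 over the 6 arrays, in bins of 0.05, with lines at named genes. Hbb-bt (0.99), Hbb-bs (0.97) and Alas2 (0.95) lie at the right end, Fech (-0.21) and Slc4a1 (0.17) near the middle.

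No member passed the test of captopril against control. In limma, 0 of the 4 tested member probes and 0 of the 10 tested Hbb-bs and Hbb-bt probes had an adjusted p under 0.05, against 3 of 16500 probes on the whole array (0.0182%), and each had an adjusted p of 0.995. At an unadjusted p under 0.05 the count of these probes was also 0, against 707 probes on the array (4.28%). Hba-a1 averaged 13.58 ± 0.37 on captopril arrays and 13.31 ± 0.55 on control arrays (SD, n = 3 each), a log2 difference of 0.28 (SE 0.29, 95% interval -0.40 to 0.95), or 1.21-fold with an interval of 0.758-fold to 1.93-fold. Hbb-bt at its brightest probe differed by 0.33 (SE 0.29, 95% interval -0.34 to 0.99) and Hbb-bs by 0.23 (SE 0.27, 95% interval -0.38 to 0.84).

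All 11 adult globin probes had a higher mean on captopril arrays, with log2 differences of 0.14 to 0.40 among the 9 bright ones, and the groups stood apart on 0 of these 9, against 8.69% of all tested probes. Among all tested named genes 49.1% had a higher captopril mean. These probes follow the same mice and are not independent of each other. The size rested on control array 1: without it the log2 difference of Hba-a1 was -0.001, of Hbb-bs 0.03, of Hbb-bt 0.05 and of Alas2 -0.05. Without control array 3 the differences were 0.55 for Hba-a1, 0.43 for Hbb-bs, 0.61 for Hbb-bt and 0.45 for Alas2, and without captopril array 1 they were 0.49, 0.48, 0.53 and 0.53. Without captopril array 2, Hba-a1 stood at 0.15, Hbb-bs at 0.05 and Alas2 at 0.06, and without captopril array 3 Alas2 stood at 0.01. The differences of Hbb-bt without captopril array 3 and of Hba-a1 without it were 0.22 and 0.19.

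Alas2 averaged 6.51 ± 0.58 on captopril arrays and 6.31 ± 0.50 on control arrays (SD, n = 3 each), a log2 difference of 0.20 (SE 0.33, 95% interval -0.56 to 0.96). In the authors' processed values, which are compressed at the dim end, it was 0.05, and without background correction 0.09. Fech at ILMN_1228534 averaged 6.37 ± 0.26 on captopril arrays and 6.42 ± 0.35 on control arrays, a log2 difference of -0.05 (SE 0.21, 95% interval -0.53 to 0.44), and ILMN_2710731 gave -0.18 (SE 0.17, 95% interval -0.58 to 0.22). Intervals of this width leave room for a 1.94-fold higher level of Alas2 and a 1.35-fold higher level of Fech on captopril arrays, as well as for lower levels.

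**Figure D4:**
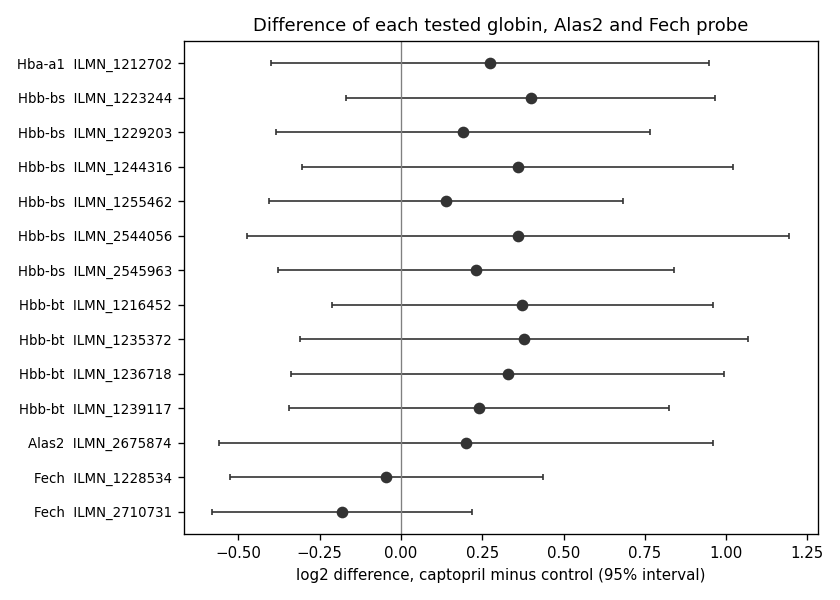
Log2 difference, captopril minus control, of every tested probe of Hba-a1, Hbb-bs, Hbb-bt, Alas2 and Fech, with 95% intervals from limma. Every interval includes 0, the globin and Alas2 points lie between 0.14 and 0.40 and the Fech points at -0.05 and -0.18.

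Haem synthesis genes also serve the kidney's own haem proteins, and the SD over the 6 arrays was 0.50 for Alas2, 0.38 for Cpox and 0.09 for Urod, the least variable of them. The list of 9 enzymes had 8 tested genes, with 0 past the threshold in limma and 0 at an unadjusted p under 0.05 at their brightest probes, and a median log2 difference of -0.03 against -0.003 over all tested named genes. Alas1, the form of the starting enzyme used outside the red cell lineage, stood at 12.72, 12.76 and 12.75 on captopril arrays and 12.09, 12.64 and 12.62 on control arrays. Its groups did not overlap, as held for 2 of the 8 genes and for 8.73% of all tested named genes, and the log2 difference was 0.30 (SE 0.17; adjusted p = 0.995, limma). Alad, the enzyme after it, was the other gene without overlap and differed by -0.15 (SE 0.12), and Ppox differed by -0.13 (SE 0.22) at its brightest probe. The dimmer Ppox probe ILMN_2706938 gave -0.53 (SE 0.15, unadjusted p = 0.0064 and adjusted p = 0.995 in limma), with every captopril array below the control arrays. The r of the 8 genes with Hba-a1 ran from -0.48 for Uros to 0.95 for Alas2, with a median of 0.002. Alas1 had r = 0.76 with Hba-a1, a value that 4.2% of the other tested genes reached.

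Among genes of haem transport and breakdown, 16 of 22 were tested and 0 passed. At an unadjusted p under 0.05, 1 was higher, against 3.69% of all tested named genes in either direction. That was Hp, which encodes haptoglobin, the plasma binder of free haemoglobin, at 6.14 ± 0.50 on captopril arrays and 5.31 ± 0.35 on control arrays (log2 difference 0.83, SE 0.27, adjusted p = 0.995 in limma) for the probe ILMN_2944824. The gene's other tested probes gave -0.09 and 0.22. Hmox1, which encodes the haem-degrading oxygenase, differed by 0.40 (SE 0.19), the haem transporter gene Slc48a1 by 0.25 (SE 0.13) and Flvcr2 by -0.24 (SE 0.15). The list's median r with Hba-a1 was 0.25.

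Iron genes had the most unadjusted differences of the lists described here. Of 13 tested genes 0 passed, 3 were higher at an unadjusted p under 0.05 (against 3.69% of named genes in either direction) and in 3 the groups did not overlap (against 8.73%). The transferrin receptor gene Tfrc stood at 10.34, 10.40 and 10.34 on captopril arrays and 9.99, 10.03 and 9.95 on control arrays, a log2 difference of 0.37 (SE 0.12, adjusted p = 0.995 in limma), and its other probe gave 0.35. Trf, which encodes transferrin, differed by 0.46 (SE 0.14), the iron regulatory protein gene Aco1 by 0.39 (SE 0.15) and Steap3, a ferrireductase gene, by -0.45 (SE 0.21), none past the threshold. The dimmer Steap3 probes gave 0.22 and 0.11. Slc11a2, the iron importer gene, had r = 0.94 with Hba-a1 and the ferritin heavy chain gene Fth1 -0.87.

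Few red cell membrane genes were detected. In that list 4 of 16 genes were tested, and Epb42, Rhag, Rhd, Kel and Ermap had probes that were detected on 0 of 6 arrays. Slc4a1, the band 3 anion exchanger gene that intercalated cells of the kidney also express, stood at 10.55 to 10.68 on captopril arrays and 10.53 to 10.88 on control arrays, with r = 0.17 to Hba-a1. Dmtn differed by 0.09 (SE 0.14) at its brightest probe, while its other probes gave -0.05 (SE 0.13) and -0.54 (SE 0.24). Sptb differed by 0.11 (SE 0.22), with -0.01 at its other probe, and Gypc, detected on 1 captopril array and 2 control arrays, by -0.24 (SE 0.19).

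Of the 16 erythroid regulators and reticulocyte genes 8 were tested and 0 passed. Xpo7 differed by -0.39 (SE 0.21) at its brightest probe and by -0.11 at the other. Mkrn1 differed by 0.29 (SE 0.20) at its brightest probe, and its other probes gave 0.29 (SE 0.26) and 0.53 (SE 0.22), the last with every captopril array above the control arrays (adjusted p = 0.995, limma). The erythropoietin receptor gene Epor differed by 0.14 (SE 0.13) and Fbxo7 by 0.06 (SE 0.19). The probes of Gata1 and Nfe2, erythroid transcription factor genes, were detected on 0 arrays. The median r of the 8 with Hba-a1 was -0.39, from -0.78 for the mitophagy gene Bnip3l to 0.68 for Epor. In the red cell metabolism list 9 of 12 were tested and 0 passed. An unadjusted p under 0.05 held for 1 of the 9, against 3.69% of all tested named genes. That was Pklr, detected on 1 captopril array and 3 control arrays, with a log2 difference of -0.44 (SE 0.18) at its brightest probe and -0.13 at the other. Glrx5 differed by 0.25 (SE 0.15), Pgk1 by 0.14 (SE 0.14) and Aldoa by 0.11 (SE 0.13).

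Most markers of other blood cells had no probe or were detected on too few arrays to be tested. Of 10 platelet genes 2 were tested, and the abundant platelet genes Pf4 and Ppbp were detected on 0 arrays. Gp9, a platelet glycoprotein gene, was detected on 3 captopril arrays and 0 control arrays, so that it was tested only because of the captopril arrays. Its captopril mean was at least 1.15-fold the control bound on the neqc scale, and it did not pass (adjusted p = 0.995, limma). The other, Itga2b, differed by -0.28 (SE 0.25). Of 10 neutrophil genes only Ltf was tested (log2 difference 0.28, SE 0.13), and S100a8 and S100a9 were detected on 0 arrays. Of 12 lymphocyte genes 4 were tested, Cd3d (0.35, SE 0.20), Cd3g (0.29, SE 0.17), Cd79b (0.36, SE 0.32) and Nkg7 (0.20, SE 0.26), with 0 past the threshold. Cd3d was detected on 3 captopril arrays and 1 control array. Cd3g and Cd79b were each detected on 3 captopril and 2 control arrays, and Nkg7 on 2 of each group.

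Levels of these lists, as the mean deviation of their tested genes from the 6-array mean, did not follow one order. The 3 tested adult globin genes stood at -0.30, 0.41 and 0.31 on captopril arrays 1, 2 and 3, against -0.64, -0.14 and 0.37 on control arrays 1, 2 and 3. The 10 endothelial genes, which mark vessel walls, stood at -0.04, 0.20 and -0.12 on captopril arrays and -0.08, -0.04 and 0.08 on control arrays. The 4 lymphocyte genes stood at 0.15, 0.17 and 0.13 on captopril arrays and -0.08, -0.32 and -0.05 on control arrays. These genes were dim, and the groups stood apart for 0 of the 4 taken singly. The 6 tested adipocyte genes, of 10 listed, moved more than the globins. Their mean stood at 0.92, -0.69 and 0.84 on captopril arrays and -0.98, -0.33 and 0.24 on control arrays. Cox8b and Cidea led (log2 differences 1.43, SE 0.93, and 1.18, SE 0.75), whereas Cox7a1 spanned 0.62 log2 units over the 6 arrays. Cidea was detected on 2 arrays of each group, and the adipocyte genes Fabp4, Plin1 and Retn were detected on 0 arrays. Captopril array 1 was thus high in the mean of the tested adipocyte genes and low in globins. The part of these cells in the globin differences was not tested.

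The remaining marker lists gave 0 genes past the threshold. In the endothelial list Esam differed by -0.25 (SE 0.13), Cdh5 by -0.27 (SE 0.21), Ehd3 by 0.19 (SE 0.18) and Kdr by 0.30 (SE 0.24), the last detected on 2 captopril arrays and 1 control array. Of the 11 tested kidney markers 1 had an unadjusted p under 0.05, against 3.69% of all tested named genes. That was the podocyte gene Nphs1 (log2 difference -0.48, SE 0.19), followed by the uptake receptor gene Cubn (0.30, SE 0.13), Podxl (-0.22, SE 0.13) and Lrp2 (0.23, SE 0.16). The groups did not overlap for 3 of the 11, Nphs1, Cubn and Podxl, against 8.73% of all tested named genes. The adipocyte genes Cox7a1 (0.23, SE 0.15) and Ucp1 (0.75, SE 0.57) completed the named genes. Slc34a1 had r = -0.81 with Hba-a1 and Aqp2, a collecting duct gene, 0.85.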

How the data were processed

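The deposited scanner table gave a signal intensity and a detection p-value for each probe and array, per the file headers. The value table deposited with the series is on a log2-like scale, and lumi is named per the submitters' processing notes. Each such column ranked probes as its array's intensity did (Spearman 1) with a median of 7.94, while transform and centring stay unknown. Groups came from the title labels. Intensities were corrected with neqc (offset 16, quantile normalization, log2) in limma 3.58.1 under R 4.3.3. Probes with detection p under 0.05 on at least 3 of 6 arrays, 16500 in all, were fitted with lmFit and eBayes using the 6 arrays and the group alone, and two-sided p-values were adjusted by Benjamini-Hochberg over every tested probe. The fit was checked on simulated data. The limma p-values and intervals weigh the spread between these 6 mice, 1 array each, moderated toward the spread of all tested probes. For probes as variable as those of Hba-a1 and Alas2, intervals are therefore narrower than their own spread alone would give. With trend and robust options the SE was 0.38 for Hba-a1 and 0.29 for Alas2, against 0.29 and 0.33 in the main fit.

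A gene was represented by its brightest tested probe (9718 named genes). Symbols came from the platform annotation, which names 34885 probes with 1 symbol each. The text names every member, up to 4 genes per list with the smallest unadjusted p, and the 8 highest and 4 lowest genes by r with Hba-a1, the only detected globin among the listed symbols. Genes outside that rule, such as Slc34a1, Slc11a2, Bnip3l and undetected markers, were chosen after their values were seen. Members and lists were chosen with earlier results of these data known. The addition of Hbb-bs and Hbb-bt to the correlations followed sight of the annotation. No Fech sequence was used here.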

Additional observations from a re-analysis of the deposited data

How the results depend on the processing

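The count of 0 called member probes was 0 under all 16 alternatives, with a lowest adjusted p of 0.937 in limma, and in each case 0 adult globin genes passed at their brightest probe. Over all probes the count of 3 was 5 with trend and robust options and 0 with the replicate number as a block, 2 whichever array was left out, and 2 with the Hba-a1 level as a covariate, an alternative chosen after seeing the data. The numbers share no stated origin: deviations of same-numbered arrays correlated at 0.0045 to 0.042, 0 pairs over 0.1, and 3 of 6 arrays were closest to their own number. Without control replicate 1 the log2 difference turned to -0.00148 for Hba-a1, -0.0466 for Alas2 and 0.13 for Fech; Fech also turned to 0.0512 with median scaling, which put the median of all probes at 0.08. It turned to 0.01 without captopril replicate 1 and 0.05 without captopril replicate 3. Left-out arrays gave -0.00148 to 0.55 for Hba-a1, 0.03 to 0.48 for Hbb-bs, 0.05 to 0.61 for Hbb-bt, -0.05 to 0.53 for Alas2 and -0.22 to 0.13 for Fech. Of 10 gene pairs, 6 passed by Pearson r; 3 did with the mean of a gene's probes, 0 on deviations from the group means, where 36 pairings allow no p below 0.0278, and 1 of 3 for the listed members alone, which has fewer pairs. Under median scaling Hbb-bs with Alas2 missed (r = 0.95, adjusted p = 0.0509, exact permutation). No r of the 10 pairs changed sign under another background correction, scaling, probe rule or group centring, but without control array 1 and captopril array 1 r of Fech with the other genes was 0.54 to 0.89. The cause of these changes was not tested. Dim signals near background limit Alas2 and Fech.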
